A study of Mus musculus with 10 samples.

Results

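The genes described here are 41 transcription factors that direct the first lineages of the mouse embryo, out of 21883 protein-coding genes to which ChIP-seq peaks for TET2 were assigned. They were given as a list of names and are grouped by role: 11 neural factors, 4 of neural crest and somite, 8 of endoderm, 4 of the primitive streak, 10 of mesoderm and its organs, and 4 of the caudal embryo and the trophoblast. Each peak was given to the gene whose mm10 span it overlapped, or otherwise to the nearest span within 50 kb. All 41 symbols were found in the gene table.

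The cells were mouse embryonic stem (ES) cells. Wild-type and parental cells were Tet2fl/fl, with no epitope tag. The knockout cells were Tet2-/-. The FLAG-TET2 cells were Tet2fl/fl with a 2x-Flag tag on TET2 made from its own locus. All were kept on gelatin with serum, LIF, 3 µM of the GSK-3 inhibitor CHIR99021 and 1 µM of the MEK inhibitor PD0325901, and chromatin was fixed with disuccinimidyl glutarate and then formaldehyde. Wild-type and knockout chromatin was precipitated with a rabbit antibody to the TET2 N-terminus, and FLAG-TET2 and parental chromatin with FLAG M2 affinity gel. Each of these 4 groups had 2 libraries with a peak list. The wild-type and FLAG-TET2 lists are called target lists, and the knockout and parental lists, whose cells lack the epitope, control lists. An input and an IgG library were not analysed here.

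The 8 lists differed greatly in length, from 2259 peaks in knockout replicate 1 to 63578 in FLAG-TET2 replicate 1. The second library of each target group was the shorter one (18820 peaks against 38536 in wild type, 28245 against 63578 in FLAG-TET2). Knockout replicate 2 held 11696 peaks, and the parental lists 36518 and 10122. Read depth is unknown, so the length of a list, its depth and the binding behind it cannot be told apart. The labels do not say whether replicates were separate cultures, nor how many clones each line stands for, so the spread between replicates may be technical. Peak lists measure binding and not expression, so they could not be used to check the cell type.

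TET2 is a dioxygenase that oxidises 5-methylcytosine, the methylated base found mainly in CpG pairs, and it has no DNA-binding domain of the CXXC type that its relatives TET1 and TET3 carry. Lineage transcription factors of the kind listed here are mostly silent in ES cells, and many of their promoters are CpG islands held by Polycomb complexes. Their enhancers are spread over long distances around the genes, and these become active and lose methylation as cells enter a lineage.

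Promoters of Lhx2, Neurog1, Tbx20, Cdx2 and Cdx4 are shown first. Each is the 250 bases before a start site, from RefSeq on GRCm38.p6, the assembly that mm10 represents, written 5′ to 3′ on the gene's strand with every CG pair in capitals, since that pair is where methylated cytosine mostly lies. The first 3 carried peaks of both wild-type libraries and of FLAG-TET2 replicate 1, and those of Neurog1 and Tbx20 also a peak of knockout replicate 2. The last 2 had none in any list.
Lhx2, chr2:38351058-38351307, plus strand: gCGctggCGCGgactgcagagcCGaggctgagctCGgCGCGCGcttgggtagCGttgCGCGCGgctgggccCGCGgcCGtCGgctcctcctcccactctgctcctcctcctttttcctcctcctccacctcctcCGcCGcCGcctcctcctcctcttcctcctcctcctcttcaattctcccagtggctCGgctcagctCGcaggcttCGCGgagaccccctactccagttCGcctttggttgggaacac
Neurog1, chr13:56252181-56252430, minus strand: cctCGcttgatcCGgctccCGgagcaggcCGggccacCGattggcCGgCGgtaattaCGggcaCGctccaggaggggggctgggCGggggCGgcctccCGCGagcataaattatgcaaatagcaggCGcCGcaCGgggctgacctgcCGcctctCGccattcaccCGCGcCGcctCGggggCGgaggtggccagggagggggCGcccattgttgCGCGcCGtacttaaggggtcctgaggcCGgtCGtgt
Tbx20, chr9:24774304-24774553, minus strand: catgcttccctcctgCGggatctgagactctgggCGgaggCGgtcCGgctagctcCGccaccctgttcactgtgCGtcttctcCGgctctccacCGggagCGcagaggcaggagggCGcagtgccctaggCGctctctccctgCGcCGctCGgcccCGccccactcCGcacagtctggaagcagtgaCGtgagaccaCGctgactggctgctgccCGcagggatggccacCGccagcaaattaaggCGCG
Cdx2, chr5:147307250-147307499, minus strand: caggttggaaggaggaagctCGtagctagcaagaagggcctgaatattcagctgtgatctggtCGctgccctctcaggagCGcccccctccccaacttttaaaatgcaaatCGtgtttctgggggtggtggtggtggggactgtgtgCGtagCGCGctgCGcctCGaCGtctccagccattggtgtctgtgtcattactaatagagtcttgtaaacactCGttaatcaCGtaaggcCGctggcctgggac
Cdx4, chrX:103321148-103321397, plus strand: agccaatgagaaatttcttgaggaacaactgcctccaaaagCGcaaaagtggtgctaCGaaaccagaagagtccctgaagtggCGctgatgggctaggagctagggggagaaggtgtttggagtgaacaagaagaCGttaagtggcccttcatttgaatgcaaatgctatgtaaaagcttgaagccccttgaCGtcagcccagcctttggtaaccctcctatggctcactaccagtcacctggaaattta
The Lhx2 stretch precedes the second of its 2 listed start sites. The sequences differ in CG content, from 29 CG pairs before Neurog1, 24 before Lhx2 and 22 before Tbx20 to 13 before Cdx2 and 5 before Cdx4. The octamer ATGCAAAT, the motif read by POU factors such as OCT4, was searched on both strands (reverse complement ATTTGCAT) after these sequences had been seen. It occurred before 3 of the 28 members with a promoter entry, Cdx2, Cdx4 and Neurog1 (10.7%), and before 314 of 17491 genes (1.8%). This is a match of letters and was not set against the peaks.

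Lineage factor genes held peaks in target and in control cells. The number of the 41 with a peak ranged from 21 to 35 in a target list and from 6 to 26 in a control list. Of the 41 genes, 39 had a peak in at least 1 list (95.1%), against 78.4% of all protein-coding genes. Gata5 and Gata6, which encode zinc-finger factors of endoderm and heart, had none. Peaks were more numerous in the target lists than in the control lists for 31 genes (75.6%, against 65.9% of all genes, the target lists being longer). They were fewer for 6 (Sox10, Foxa1, Hand1, Isl1, Myod1 and Foxc1, 14.6%, against 5.2% of all genes) and equal for 4 (Neurod1, Foxa2, Gata5 and Gata6). The 6 had few peaks. Sox10, Foxa1 and Myod1 had 2 target and 3 control peaks, Isl1 1 and 2, and Hand1 and Foxc1 0 and 1. Hand1 and Foxc1 had peaks in control lists alone. A region with any control peak was found at 33 members (80.5%), against 69.4% of all genes. Genes with target peaks and no control peak were Nkx2-1, Sox7, Sox9, Mixl1, Pax9 and Cdx4. Of these, Mixl1 and Pax9 had 2 target peaks each and Sox7 had 3. The share of all genes with target peaks and no control peak is not given here, and the target lists are longer.

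**Figure D1:**
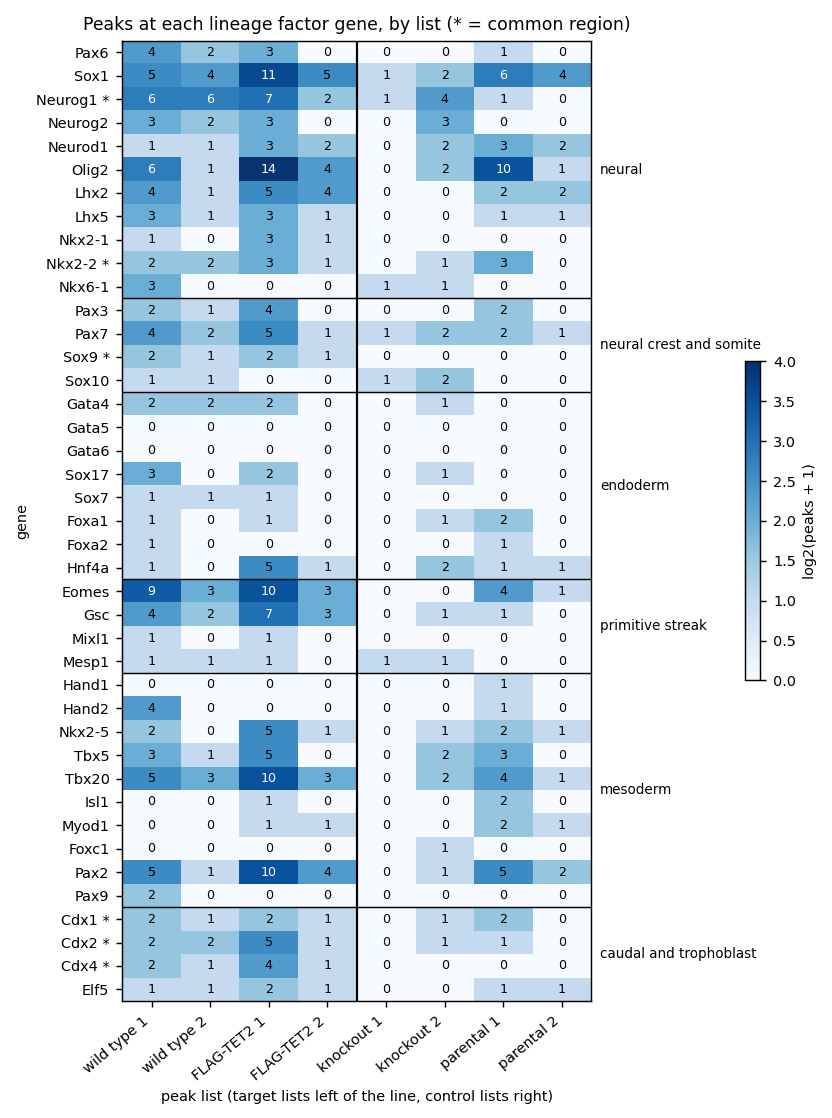
Number of peaks given to each of the 41 genes (vertical axis, grouped by lineage) in each of the 8 peak lists (horizontal axis), with colour on a log2(peaks + 1) scale and asterisks at the 6 genes with a common region. Olig2, with 14 peaks in FLAG-TET2 replicate 1 and 10 in parental replicate 1, and Sox1 are dense in both kinds of list, and Cdx4 and Sox9 hold peaks in the target lists alone.

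Binding was then read region by region. Peaks of the 8 lists that shared at least 1 bp were merged, and a region found in each of the 4 target lists but in no control list is called a common region. Of the 41 genes, 6 had a common region (14.6%), each of them 1: Neurog1, Nkx2-2, Sox9, Cdx1, Cdx2 and Cdx4. Over all protein-coding genes 13.6% had one, so the share of the lineage factors was close to that of genes in general. By lineage these were 3 of 4 caudal and trophoblast factors, 2 of 11 neural factors and 1 of 4 crest and somite factors. None of the 8 endoderm, 4 primitive streak or 10 mesoderm factors had a common region. Read gene by gene instead, without asking for a shared region, 17 members had a peak in each of the 4 target lists (41.5%, against 39.6% of all genes). Of these, only Sox9 and Cdx4 had no peak in any control list (4.88%, against 1.66% of all genes).

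The count of 6 rested on the shorter target libraries. Without wild-type replicate 2 it was 13 (19.9% of all genes then met the rule), with Sox1, Olig2, Lhx2, Nkx2-1, Eomes, Gsc and Pax2 added. Without FLAG-TET2 replicate 2 it was also 13 (17.8% of all genes), with Pax6, Neurog2, Lhx2, Pax3, Pax7, Eomes and Pax2 added. With every list shortened to its 2259 leading peaks it was 0, and 1.01% of all genes met the rule.

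The Cdx genes encode caudal-type homeodomain proteins that pattern the posterior body axis, and Cdx2 also specifies the trophectoderm. Cdx4 had 2 and 1 peaks in the wild-type lists, 4 and 1 in the FLAG-TET2 lists and 0 in each control list. Its common region (chrX:103311694-103312152) lay 9.25 kb upstream of the start site. The authors' fold enrichment there was 22.8 and 11.6 for the wild-type lists, and 16.3 and 6.34 for the FLAG-TET2 lists (replicates 1 and 2). This was the member region of highest fold in both wild-type lists, and its summits lay within 74 bp of each other. Its start-site sequence, shown above, carried no peak.

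Cdx1 had 2 and 1 wild-type peaks, 2 and 1 FLAG-TET2 peaks, 0 and 1 knockout peaks and 2 and 0 parental peaks. Target and control lists overlapped in number, and the common region was 1 of 2 regions of the gene. It lay inside the gene span on chromosome 18 (61034659 to 61035306), 0.893 kb from one end of it. The folds were 12.2 and 7.16 for the wild-type lists, and 11.3 and 6.52 for the FLAG-TET2 lists, with summits within 72 bp. The other region (61035734 to 61036873) had peaks of knockout replicate 2 (fold 4.46) and parental replicate 1 (4.98). Its target folds were 12.8 and 6.77 for the wild-type lists and 7.24 in FLAG-TET2 replicate 1.

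Cdx2 had 2 peaks in each wild-type list, 5 and 1 in FLAG-TET2, 0 and 1 in knockout and 1 and 0 in parental cells. Its common region (chr5:147304221-147305167) lay in the gene, 2.08 kb downstream of the start site shown above. The folds were 7.25 and 6.32 for the wild-type lists, and 14.8 and 6.34 for the FLAG-TET2 lists. The peaks there did not all coincide: their leading summits were spread over 587 bp, the widest of the 6 common regions. The peak of wild-type replicate 2 (147304802 to 147305150) and that of FLAG-TET2 replicate 2 (147304388 to 147304595) shared no base. They were joined by the wide peak of wild-type replicate 1 (147304341 to 147305167), while FLAG-TET2 replicate 1 had a separate peak over each. Without wild-type replicate 1, or with 200 bp windows around the summits, Cdx2 had no common region. Elf5, an ETS factor of the trophoblast stem cell that DNA methylation silences in ES cells, had 1 and 1 wild-type, 2 and 1 FLAG-TET2, 0 and 0 knockout and 1 and 1 parental peaks. Its region in all 4 target lists (chr2:103391744-103392133, 20.0 kb upstream of the nearest listed start) had folds of 4.31 to 8.36, below the 15.4 and 9.10 of the parental lists at the same place.

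Among the neural factors, Neurog1 and Nkx2-2 had common regions. Neurog1, a proneural bHLH factor of cranial sensory neurons, had 6 and 6 wild-type peaks, 7 and 2 FLAG-TET2 peaks, 1 and 4 knockout peaks and 1 and 0 parental peaks. Each target list stood above both control lists of the same antibody. The common region (chr13:56216059-56216452) lay 35.7 kb downstream of the start site, outside the gene. Its folds were 9.29 and 6.07 for the wild-type lists, and 13.8 and 7.28 for the FLAG-TET2 lists, and the 4 summits lay within 5 bp. Neurog1 was the nearest protein-coding gene, and when genes of all kinds were considered this region went to another gene. Nkx2-2, a homeodomain factor of the ventral neural tube and pancreas, had 2 and 2 wild-type, 3 and 1 FLAG-TET2, 0 and 1 knockout and 3 and 0 parental peaks. Its common region (chr2:147189520-147190043) lay within the annotated span, 3.12 kb upstream of the listed start. The folds there were 19.8 and 11.3 for the wild-type lists, and 15.1 and 7.99 for the FLAG-TET2 lists, and the summits lay within 46 bp.

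Sox9, an SRY-box factor of neural crest, cartilage and the gonad, had 2 and 1 wild-type, 2 and 1 FLAG-TET2 and no control peaks. Its common region (chr11:112811018-112811483) lay 23.3 kb outside the gene. Its folds were 12.8 and 11.1 for the wild-type lists, and 12.04 and 5.90 for the FLAG-TET2 lists, and its summits lay within 20 bp. This region too went to another gene when genes of all kinds were considered. Over the 6 common regions, FLAG-TET2 replicate 2 had the lowest fold at 4 (Nkx2-2, Sox9, Cdx1 and Cdx4) and wild-type replicate 2 at Neurog1 and Cdx2. Ranked by −log10 q within each target list, the regions stood at a mean percentile of 89.0 (Nkx2-2), 81.0 (Cdx4), 77.8 (Sox9), 71.4 (Cdx1), 67.4 (Neurog1) and 66.8 (Cdx2). The median over all 4521 common regions was 70.7, so the 6 were spread on both sides of it.

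**Figure D2:**
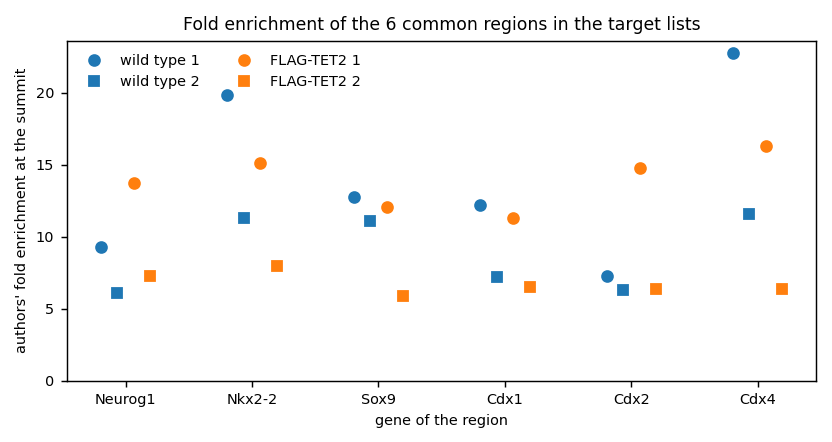
The authors' fold enrichment at the summit (vertical axis, linear ratio) for the common region of 6 genes (horizontal axis), 1 point per target list. Folds run from 5.90 to 22.8, and the second library of each group, drawn as squares, lies below the first in every region.

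The other neural genes carried many peaks, many of them shared with control lists. Of the 11 neural factors, 7 were near a control region, that is one found in 2 or more of the 4 control lists. Over all 41 members this held for 19 (46.3%), against 41.7% of all genes. The count of 19 fell with any control list left out, since the rule asks for 2 of them. It was 8 without parental replicate 1 and 10 without parental replicate 2. Without knockout replicate 1 it was 15, and without knockout replicate 2 it was 13. Shares of all genes with a list left out are not given here. The members with most control peaks were Sox1 and Olig2 (13 each) and Pax2 (8), followed by Neurod1 and Tbx20 (7 each).

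Sox1, the SoxB1 factor that marks the neural plate, had 5 and 4 wild-type, 11 and 5 FLAG-TET2, 1 and 2 knockout and 6 and 4 parental peaks. The FLAG-TET2 and parental lists overlapped, and the wild-type lists stood above both knockout lists. At its region 5.21 kb downstream of the start (chr8:12400730-12401161) the folds were 8.85 and 9.28 in wild type, 16.4 in each FLAG-TET2 list and 17.9 and 12.3 in the parental lists. Olig2, which specifies motor neurons and oligodendrocytes, had 18 merged regions, the most of any member. It had 6 and 1 wild-type, 14 and 4 FLAG-TET2, 0 and 2 knockout and 10 and 1 parental peaks, and the lists overlapped in both antibodies. Neurod1, a bHLH factor of neuronal differentiation and the islet, had 1 and 1 wild-type, 3 and 2 FLAG-TET2, 0 and 2 knockout and 3 and 2 parental peaks.

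Several neural and crest genes had more target than control peaks and still no common region. Pax6, the paired-box factor of eye and forebrain, had 4 and 2 wild-type, 3 and 0 FLAG-TET2, no knockout and 1 and 0 parental peaks. Pax3, of dorsal neural tube and somite, had 2 and 1, 4 and 0, none and 2 and 0 in the same order. In both, FLAG-TET2 replicate 2 was the list without a peak. Lhx2, a LIM homeodomain gene needed for eye and forebrain, had 4 and 1 wild-type, 5 and 4 FLAG-TET2, no knockout and 2 and 2 parental peaks, so its target lists stood above the controls in both antibodies. Its peaks over the promoter shown above had low folds of 5.97 and 4.43 in wild type and 3.59 in FLAG-TET2 replicate 1. Nkx2-1, which sets ventral forebrain, lung and thyroid, had 1 and 0 wild-type, 3 and 1 FLAG-TET2 and no control peaks. Neurog2, a proneural factor related to Neurog1, had 3 and 2 wild-type, 3 and 0 FLAG-TET2, 0 and 3 knockout and no parental peaks. A region 0.324 kb upstream of its start (chr3:127632482-127632812) had folds of 10.1, 8.23 and 5.41 in both wild-type lists and FLAG-TET2 replicate 1, with no control peak over it. Close by, 0.017 kb downstream of the same start, knockout replicate 2 had a peak of fold 7.97 (chr3:127633153-127633362). Nkx6-1, of motor neuron and beta cell, had 3 peaks in wild-type replicate 1, none in the other target lists and 1 in each knockout list.

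The strongest FLAG signals at the members were shared with untagged cells. At Lhx2, a region 48.0 kb from the gene (chr2:38417763-38418592) had folds of 76.1 and 58.7 for the FLAG-TET2 lists and 76.8 and 59.9 for the parental lists, with no peak from the TET2 antibody. At Lhx5, a related forebrain gene, a region 7.49 kb from the gene (chr5:120424034-120424394) had folds of 69.0 and 44.5 for the FLAG-TET2 lists, 71.7 and 51.0 for the parental lists and 6.53 and 9.67 in wild type. All of the 10 member regions of highest fold in FLAG-TET2 replicate 1 had a parental peak, as did the 10 of replicate 2. Of all regions assigned to any gene with a fold at least as high as the lowest of these 10, 75.6% and 81.9% had a parental peak. Over all member regions of those lists it was 45 of 135 and 24 of 42 (33.3% and 57.1%), against 41.1% and 59.8% of all assigned regions. With the TET2 antibody, 3 of the 10 leading regions of wild-type replicate 1 had a knockout peak and 4 were common regions, and in replicate 2 these were 2 and 3. Of all assigned regions with a fold at least as high as the lowest of these 10, 37.2% and 41% had a knockout peak. Over all member regions of the wild-type lists it was 25% and 33.3%, against 24% and 34.9% of all assigned regions. The share of common regions among all regions of such fold is not given here.

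Of the 27 control regions at members, 6 were found in both knockout lists, at Sox1, Neurog1, Nkx6-1, Pax7, Sox10 and Mesp1. A further 19, at 13 members, were found in both parental lists, and each of the 19 was also found in both FLAG-TET2 lists. These were 3.02% and 9.55% of member regions, against 2.99% and 12.1% of all assigned regions. All 4 control lists had a peak at no member region, and at 0.411% of all assigned regions. Neurod1 and Nkx2-5 each had a region in knockout replicate 2 and both parental lists. The remaining control regions, at Cdx1 and Cdx2, were in knockout replicate 2 and parental replicate 1. The clearest knockout signal was at Sox10, the SRY-box factor of migrating neural crest and glia. Its region 7.21 kb from the gene had folds of 12.3 and 22.7 in the knockout lists and 8.70 and 5.74 in the wild-type lists. Pax7, the paired-box factor of muscle stem cells and dorsal neural tube, had a region in the gene with folds of 9.98 and 16.4 in knockout cells and 8.18 in wild-type replicate 1.

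No endoderm factor had a region in all 4 target lists. Gata4 had 2 and 2 wild-type, 2 and 0 FLAG-TET2, 0 and 1 knockout and no parental peaks, and 1 of its regions (chr14:63255584-63256222) was in both wild-type lists, FLAG-TET2 replicate 1 and knockout replicate 2. Sox17, which sets definitive and extraembryonic endoderm, had 3 and 0, 2 and 0, 0 and 1, and no parental peaks, in the same order. Sox7 had 1 peak in each of 3 target lists, at 3 different regions. The pioneer factors Foxa1 and Foxa2, which open liver and gut enhancers, had 1 and 0 wild-type peaks each. For FLAG-TET2 these 2 genes had 1 and 0 (Foxa1) and no peaks (Foxa2), and parental replicate 1 gave 2 and 1. Foxa1 also had 1 peak in knockout replicate 2, and Foxa2 had no knockout peak. Hnf4a, the nuclear receptor of hepatocytes and visceral endoderm, had 1 and 0 wild-type, 5 and 1 FLAG-TET2, 0 and 2 knockout and 1 and 1 parental peaks. The highest fold at Hnf4a (47.8 and 26.4 in FLAG-TET2) was again at a parental region, with 57.0 and 33.6.

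Among the streak factors, Eomes and Gsc had many target peaks. Eomes, a T-box factor of mesendoderm and trophoblast, had 9 and 3 wild-type, 10 and 3 FLAG-TET2, no knockout and 4 and 1 parental peaks. The wild-type lists stood above the knockout lists, and the FLAG-TET2 and parental lists overlapped. Its regions that missed a common call by 1 target list numbered 3. Gsc, the organiser homeodomain factor, had 4 and 2 wild-type, 7 and 3 FLAG-TET2, 0 and 1 knockout and 1 and 0 parental peaks, with no overlap between target and control within either antibody. Its leading region (chr12:104452862-104453683, 19.6 kb downstream of the start) had folds of 18.6 and 5.18 for the wild-type lists, and 16.3 and 10.0 for the FLAG-TET2 lists, and 8.52 in knockout replicate 2. Without knockout replicate 2 it was a common region. Mixl1 had 1 peak in each first target library, and the 1 region of Mesp1, a bHLH factor of cardiac progenitors, was found in both wild-type and both knockout lists and in FLAG-TET2 replicate 1.

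Tbx20, a T-box factor of the heart, was the one mesoderm gene with regions in all 4 target lists. It had 5 and 3 wild-type, 10 and 3 FLAG-TET2, 0 and 2 knockout and 4 and 1 parental peaks. At the region 44.1 kb upstream of its start (chr9:24818371-24819212) the folds were 13.9 and 7.86 in wild type, 21.0 and 11.8 in FLAG-TET2 and 5.09 in parental replicate 1. At the region 2.23 kb upstream (chr9:24776529-24776903) they were 16.1, 9.87, 17.1 and 9.16, and 5.81 in parental replicate 1. In both the parental fold was below each of the 4 target folds, and without parental replicate 1 both were common regions. The mean percentile of the first, 93.5, was above those of all 6 common regions, and that of the second, 87.4, above those of 5. Pax2, the paired-box factor of kidney and midbrain, had 5 and 1 wild-type, 10 and 4 FLAG-TET2, 0 and 1 knockout and 5 and 2 parental peaks. Tbx5 and Nkx2-5, further heart factors, had 9 and 8 target peaks and 5 and 4 control peaks. Hand2, Isl1, Myod1 and Pax9 had between 1 and 4 target peaks and between 0 and 3 control peaks.

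Regions that missed a common call by 1 list numbered 20, at 13 members (31.7%, against 23.1% of all genes). They were 10.1% of member regions, against 10.2% of all assigned regions. Of the 20, 16 lacked 1 target list and 4 had 1 control list. Wild-type replicate 2 was the missing list at 9 regions and FLAG-TET2 replicate 2 at 7, and the longer first libraries were missing at none. By mean percentile they were led by those of Tbx20 and Gsc, then Neurog1 (70.9), Pax3 (69.2), Pax2 (64.3) and Nkx2-1 (61.7). Without the control filter, 11 members had a region in all 4 target lists (26.8%), against 37% of all genes. They were the 6 above and Sox1, Lhx5, Gsc, Tbx20 and Elf5. This count was 17 without wild-type replicate 2 and 21 without FLAG-TET2 replicate 2, and the matching shares of all genes are not given here.

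Each antibody was also read against its own control. With the TET2 antibody, 17 members had a region in both wild-type lists and in no knockout list (41.5%), against 32% of all genes, and without wild-type replicate 2 it was 31. The 17 included 7 of 11 neural, 3 of 4 crest and somite and 4 of 4 caudal and trophoblast factors, and 2 of 10 mesoderm, 1 of 4 streak and 0 of 8 endoderm factors. With the FLAG resin, 13 had a region in both FLAG-TET2 lists and in no parental list (31.7%), against 24.1% of all genes, and without FLAG-TET2 replicate 2 it was 29. By peak number, both target lists exceeded both control lists in both antibodies at Neurog1, Lhx2, Sox9, Gsc and Cdx4. These 5 were 12.2% of members, against 9.44% of all genes. The count was 15 without FLAG-TET2 replicate 2 and 10 without parental replicate 1. For the counts in this paragraph with a list left out, shares of all genes are not given.

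Averaged over both antibodies, full-length target and control lists differed in their share of member peaks by less than the spread between replicates. The 41 genes held 99 and 44 wild-type, 141 and 42 FLAG-TET2, 6 and 35 knockout and 64 and 19 parental peaks. Per 1000 peaks of the list this was 2.57 and 2.34 in wild type, 2.66 and 2.99 in knockout, 2.22 and 1.49 for FLAG-TET2 and 1.75 and 1.88 for parental libraries. Both knockout lists stood above both wild-type lists, and the FLAG-TET2 lists lay on both sides of the parental lists. Averaged over both antibodies, the target lists exceeded the control lists in number by 1.60 on a log2(peaks + 1) scale (SD 1.26 between replicates, pooled over 4 groups of 2). Per 1000 peaks the average difference was -0.167 (SD 0.299), less than the spread between replicates. In lists of equal length, the 2259 leading peaks of each, members held 5 and 6 wild-type and 6 and 7 FLAG-TET2 peaks, and 6 and 8 knockout and 12 and 11 parental peaks. The log2 difference was then -0.516 and that per 1000 peaks -1.44, with both FLAG-TET2 lists below both parental lists.

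As a reference within the same lists, 15 factors of the naive ES cell state (among them Klf2, Sox2, Esrrb and Prdm14) took 2.91 and 3.67 peaks per 1000 in wild type, and 3.04 and 3.58 for FLAG-TET2. They took 0.443 and 1.11 in knockout and 2.41 and 2.67 in parental cells. Of these 15 genes 10 had a common region, against 6 of the 41 lineage factors. Per Mb of territory, the sequence from which regions could be assigned to a gene, the naive factors had 15.4 common regions, the lineage factors 1.76 and all genes 2.30. The lineage factors had more regions of any kind per Mb than all genes (58.4 against 38.9) and 7.92 control regions per Mb against 6.77. Their territories were larger than those of genes in general, with a median of 79.5 kb against 45.8 kb. No test was made of these differences.

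**Figure D3:**
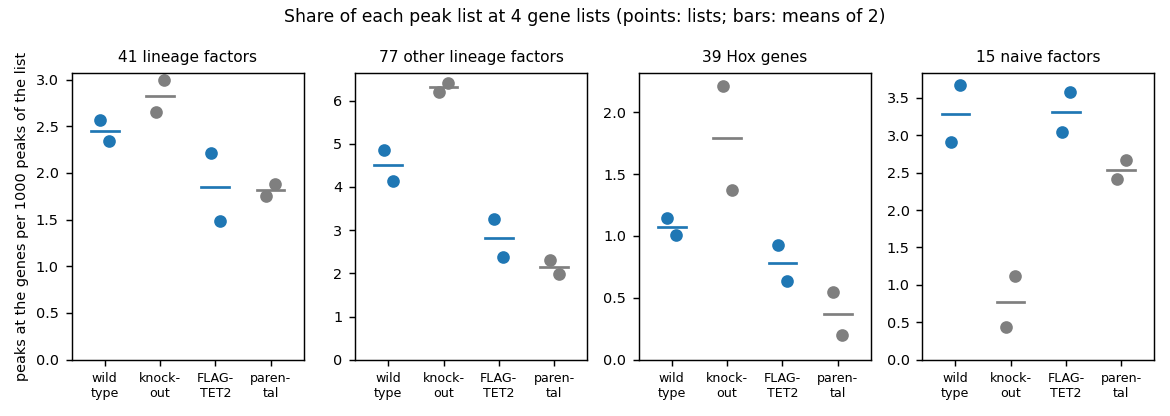
Peaks per 1000 peaks of a list (vertical axis) at 4 gene lists, 1 panel each with its own scale, for wild-type, knockout, FLAG-TET2 and parental libraries (points, with bars at the mean of 2). At the 41 lineage factors target and control shares lie between 1.49 and 2.99, and at the 15 naive factors both target groups lie above their controls.

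Most member regions were found in some of the target lists. Of 199 member regions, 6 were common (3.02%, against 5.91% of the 66418 regions assigned to any gene) and 8 were in all 4 target lists with a control peak (4.02% against 10.6%). Regions in 1 to 3 target lists with no control peak numbered 101 (50.8% against 44.6%). Those in FLAG-TET2 and parental lists with no TET2-antibody peak numbered 29, at 18 members (14.6% against 16.0%), and 25 were in control lists alone (12.6% against 10.5%). The other 30 were mixed. Of the 6 common regions 3 lay in a gene span and 1, at Cdx1, within 1 kb of a gene end. None of the 4 with a listed start site lay within 1 kb of it, nor did any of the 29 FLAG-TET2 and parental regions lie within 1 kb of a start or gene end. Of the 101 regions in 1 to 3 target lists, 11 did. Shares of all assigned regions within 1 kb are not given here, so these positions cannot be called particular to the members.

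**Figure D4:**
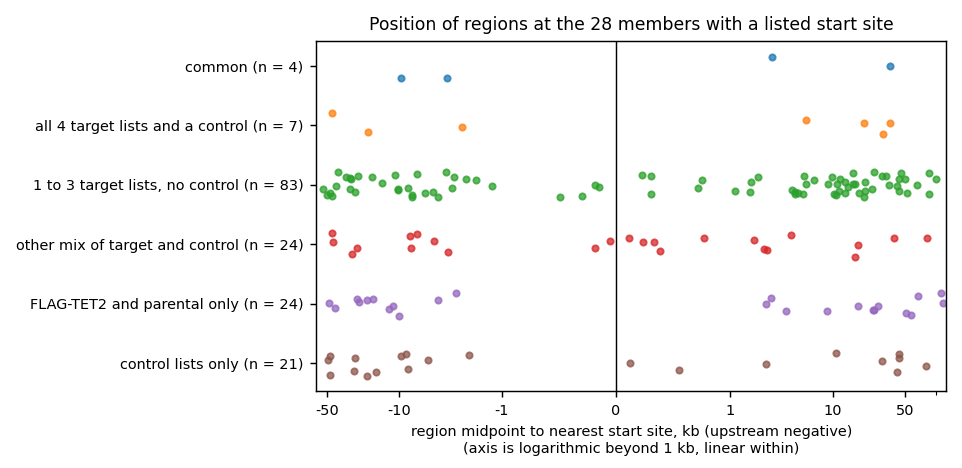
Distance in kb from the middle of each region to the nearest listed start site (horizontal axis, logarithmic beyond 1 kb, vertical scatter for legibility only) for the 28 members with a listed start, by pattern of lists. The 4 common regions and the 24 regions of FLAG-TET2 and parental lists all lie more than 1 kb from the start, and regions near it are in the mixed, control-only and 1 to 3 target list classes. Regions of other genes are not drawn.

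Few of the members' promoters carried a peak. Over the 250 bases before a start site, with 28 members in the promoter table, wild-type replicates 1 and 2 had a peak at 6 and 4 members (21.4% and 14.3%), against 45.4% and 27.9% of 17491 genes. FLAG-TET2 replicate 1 had one at 4 (14.3%, against 46.5%) and replicate 2 at 0 (against 27%). Knockout replicate 2 had one at 3 (10.7%, against 15.5%), and knockout replicate 1 and both parental lists had none (against 3.28%, 26.8% and 7.11%). In each of the 8 lists the member share was below that of all genes. Members with a target peak there were Sox1, Neurog1, Neurod1, Olig2, Lhx2, Nkx6-1 and Tbx20, 7 in all (25%, against 53%), of which 6 are neural. At Neurog1, Neurod1 and Tbx20 knockout replicate 2 had a peak over the same bases. Neural members are well covered in the promoter table: of 11 only Lhx5 had no entry, against 13 of all 41 members. Members had a median of 14 CG pairs in these 250 bases, and all genes a median of 10.

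**Figure D5:**
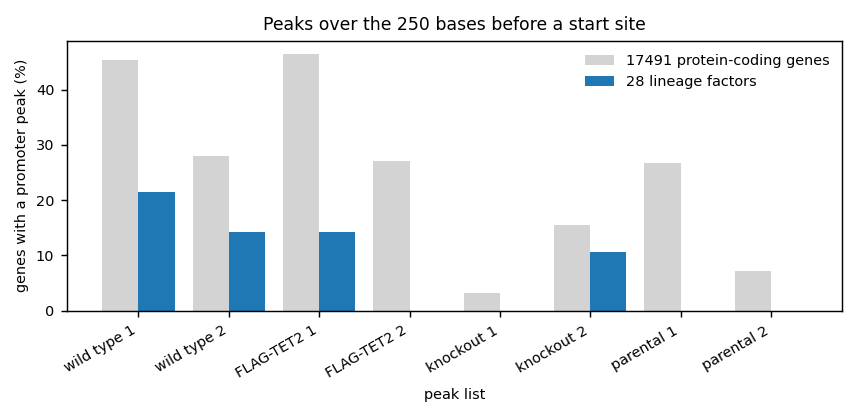
Percent of genes (vertical axis) with a peak over the 250 bases before a listed start site, in each of the 8 lists (horizontal axis), for 28 lineage factors and 17491 protein-coding genes. Bars of the lineage factors are below those of all genes in every list, with none in FLAG-TET2 replicate 2.

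Per gene, target and control lists were compared by a two-sided exact permutation test of peak number within each antibody, over all genes with a peak. With 36 arrangements its p cannot fall below 0.0556, so no gene could be called. By this exact permutation test 5 of the 39 members tested stood at that p (Neurog1, Lhx2, Sox9, Gsc and Cdx4), as did 2065 of 17178 genes, and the smallest p adjusted by Benjamini-Hochberg over all genes was 0.462. No gene had an unadjusted p below 0.05. Assignment to the nearest gene does not show which gene a distal region acts on.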

How the data were processed

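TET2 ChIP-seq peak lists of 8 libraries were analysed. Tools listed in the submitters' processing notes, without versions, roles or order, are MACS2, Bowtie2, Trimmomatic, DESeq2 and DiffBind, and the build is mm10. The deposited lists give for each peak, in the authors' values, −log10 p and −log10 q values, a fold enrichment (a linear ratio), a score and the summit offset. The lowest deposited −log10 q was 2.01. No read counts were used here, and depth is unknown.

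Peaks on 21 assembled chromosomes were kept (2 to 34 left out per list) and merged into 79350 regions. Gene spans and promoters came from RefSeq (GRCm38.p6). Of the members, 28 matched the promoter table. The 41 members, comparison lists and tests were chosen with earlier results of these data known. All members could be named. Full values went to those with a common region, then to the leading members with a region in all 4 target lists and a control, to regions 1 list short (up to 6 members, by percentile) and to the 4 with most control peaks, where a tie gave 5. Other regions named were chosen after their values were seen. The peak-number test uses log2(peaks + 1). On simulated lists of random peaks, the scripts recovered genes planted at nearly the same place in all 4 target lists. That simulation had no background shared between lists, so it checks the code and not the calls in the real lists. Alternatives were a stricter threshold, summit windows, another overlap, equal list length, other distances, all gene types and leaving out each library. Python 3.11.15, pandas 2.3.3 and numpy 2.4.6 were used.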

Additional observations from a re-analysis of the deposited data

Results flagged for a closer look

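Both values below were taken because, in lists of full length, every library moved one way with the TET2 antibody and the opposite way with the FLAG resin, and the difference between the reagents was not tested. For 77 other lineage factors, the share of peaks per 1000 of a list, target minus control, differed between the TET2 antibody and the FLAG resin by -2.48. The shares were 4.85 and 4.14 in wild type and 6.20 and 6.41 in knockout, but 3.26 and 2.37 for FLAG-TET2 and 2.30 and 1.98 for parental libraries. For 39 Hox genes the same difference was -1.13, with 1.14 and 1.01 in wild type, 2.21 and 1.37 in knockout, 0.928 and 0.637 for FLAG-TET2 and 0.548 and 0.198 for parental libraries. Knockout replicate 1 had 5 Hox peaks and parental replicate 2 had 2, so these shares rest on few peaks. In lists of 2259 leading peaks the opposite directions were not seen. The other lineage factors then had 12 and 11 FLAG-TET2 peaks against 13 and 15 parental ones, and the Hox genes 0 in each of these 4 lists. At the 41 lineage factors the 2 FLAG-TET2 libraries lay on both sides of the parental ones, and the 2 reagents could not be set apart in this way.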

How the results depend on the processing

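With the lists shortened to equal length, no member had a common region (0), a region in all 4 target lists (0), an anti-FLAG specific region (0) or non-overlapping peak numbers (0). Control regions were then at 12 members and anti-TET2 specific regions at 2. The log2 difference in peak number was -0.516 and the difference per 1000 peaks -1.44. With regions within 10 kb, 7 members had a region in all 4 target lists, 7 an anti-FLAG specific region and 2 non-overlapping numbers. With regions over the span alone, 3 had a common region, as did 8.61% of all genes. Under that setting 3 members had a region in all 4 target lists, 10 a control region, 10 an anti-TET2 and 5 an anti-FLAG specific region, and 1 non-overlapping numbers. With genes of all kinds, 4 had a region in all 4 target lists, 11 a control region, 11 an anti-TET2 and 7 an anti-FLAG specific region and 2 non-overlapping numbers. With a peak in at least 1 control list as the rule, 33 had a control region (80.5%, against 69.4% of all genes). For the other counts here and in the next paragraph, common regions apart, shares of all genes are not given.

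Leaving out each library in turn, members with a common region ranged from 5 to 13, and the share of all genes with one from 13.6% to 20.3%. Members with a region in all 4 target lists ranged from 10 to 21 and with a control region from 8 to 19. Those with an anti-TET2 specific region ranged from 17 to 31 and with an anti-FLAG specific region from 13 to 29. Members with non-overlapping numbers ranged from 5 to 15, the log2 difference from 1.01 to 2.19 and the difference per 1000 peaks from -0.349 to 0.0161. Of 15 alternatives, Nkx2-2 and Cdx1 kept their common region in 14, Cdx4 in 13, Cdx2 in 12 and Neurog1 and Sox9 in 11. Leaving out a library only loosens the rule. A common region could be lost there only where its peaks no longer merged, as at Cdx2 without wild-type replicate 1. Those alternatives therefore say little on how firm a common region is.

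The replicate block, which compares libraries of the same number, gave 9 members with target above control in both antibodies (22%, against 17% of all genes), in place of 5. The libraries share a number and nothing more in the labels. Over genes, deviations of same-numbered libraries correlated at 0.213 in the FLAG arm and at -0.107 in the TET2-antibody arm. With crossed numbers for the TET2 antibody, chosen after the pairing check was seen, it gave 11. The share of all genes under crossed numbers is not given, so the 11 cannot be read as a gain for the members.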

Other observations

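Common regions were also counted at other developmental genes. Of 77 further lineage factors 13 had one, led by within-list percentile by Msx2, a homeodomain factor of limb and crest (folds of 15.0 to 30.0 in the 4 target lists), Tcf15, Tfap2c, En2, Meox2 and En1. Of 14 genes typical of fibroblasts, which can serve as feeder cells, 4 had one (Col3a1, Fn1, Vim and Loxl1). Against 13.6% of all genes, these shares were 16.9% and 28.6%, on lists of unequal size and with no test.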
